A study of Homo sapiens with 2 samples.

Results

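The cells described here are human embryonic stem cells that carried the transcripts of at least 2 of the interferon-induced genes IFIT1, IFIT2 and IFIT3, with 1 or more raw UMI (unique molecular identifier, a tag that counts each captured RNA molecule once) for each. They numbered 58 of the 15637 cells kept, and are called IFIT cells below. A cell was kept when 1000 or more genes were detected in it and less than 20% of its UMIs came from the mitochondrial genome (MT- genes). The 14797 kept cells with no UMI of any of the 3 genes served as the comparison, and 782 cells with exactly 1 of the 3 genes lay just outside the rule. The cells were chosen by the UMIs of IFIT1, IFIT2 and IFIT3, so the values of those 3 genes are given as a description only. Cells are not replicates, and neither are the genes of 1 cell.

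The cells came from 2 libraries of the H9 line, an established line of human embryonic stem cells, grown in RSeT, a medium used to hold such cells in a naive-like state. Each library held cells transfected with 1 dye-labelled oligonucleotide at 25 nM with a lipid reagent, named SO-L1 in the first library and ASO-L1 in the second. ASO is the usual short form of antisense oligonucleotide, and the study concerns RNA of the LINE1 repeat. Both groups also received 10 nM DZNep, 5 nM TSA (a histone deacetylase inhibitor), 0.7 uM trans-ISRIB (an inhibitor of the integrated stress response), 5 uM emricasan (a caspase inhibitor) and 10 uM Y-27632 (an inhibitor of ROCK). The last 3 of these were withdrawn after 24 h, cells were collected at 48 h, and cells positive for the dye were sorted, 100000 per group, before droplet capture with a 3′ kit. No untransfected cells were part of the 2 libraries, so every value refers to cells that had taken up an oligonucleotide. With 1 library per group there is no replicate, no test was made, and every interval covers counting error only.

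The IFIT genes encode proteins that bind viral RNA and block its translation. They are transcribed when a cell senses foreign nucleic acid through RIG-I (gene DDX58) or MDA5 (gene IFIH1), or when secreted interferon reaches its receptor and starts JAK-STAT signalling. The factors it activates bind a short promoter sequence called the interferon-stimulated response element, and IRF3 can act on similar sites before any interferon is made. Pluripotent stem cells are known for a muted interferon response and for constant expression of some antiviral genes, such as IFITM3.

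IFIT1 (ENSG00000185745, chr10:89392546-89406486), IFIT2 (ENSG00000119922, chr10:89283694-89309276) and IFIT3 (ENSG00000119917, chr10:89327894-89340971) lie together on the plus strand of chromosome 10 in GRCh38, by the GENCODE 29 annotation. The proximal promoters below are shown because they carry the element the 3 genes are known for. Capitals mark every match to GAAANNGAAA, searched on both strands, where overlapping matches run together. They come from the RefSeq promoter table on GRCh38 and stop at the first base that GENCODE 29 counts as exon of the gene. The ISG15 stretch lies inside the GENCODE span of that gene, in intron of its longer transcripts.
IFIT1, chr10:89392373-89392545, plus strand: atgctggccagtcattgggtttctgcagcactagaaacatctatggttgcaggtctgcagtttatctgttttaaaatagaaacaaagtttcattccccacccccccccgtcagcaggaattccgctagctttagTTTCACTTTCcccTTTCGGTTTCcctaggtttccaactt
IFIT3, chr10:89327747-89327893, plus strand: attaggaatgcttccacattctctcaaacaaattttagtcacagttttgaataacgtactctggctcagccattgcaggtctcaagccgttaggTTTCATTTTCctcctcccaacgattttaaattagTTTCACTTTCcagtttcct
ISG15, chr1:1013247-1013422, plus strand: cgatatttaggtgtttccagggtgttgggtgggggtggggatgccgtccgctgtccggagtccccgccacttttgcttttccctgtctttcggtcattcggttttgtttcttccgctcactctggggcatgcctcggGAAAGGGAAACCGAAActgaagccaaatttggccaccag
IFNL1, chr19:39296157-39296324, plus strand: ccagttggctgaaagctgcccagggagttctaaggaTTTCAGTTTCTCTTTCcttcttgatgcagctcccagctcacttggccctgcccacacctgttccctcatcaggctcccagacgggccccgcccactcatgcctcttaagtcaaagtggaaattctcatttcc
Each of the 4 stretches holds 2 matches. In IFIT1 they begin 116 and 103 bases before the RefSeq start and lie on the minus strand, so they read as TTTCNNTTTC. A match in the 250 bases before the start was found for 3.71% of 27305 genes with a promoter in the table. Of the antiviral effectors listed for this work (63 genes known to be induced by interferon, IFIT1 to IFIT3 not among them), 29 of 51 with a promoter there held a match, or 56.9%. For genes of antigen presentation the count was 8 of 16, and for interferon receptors and JAK-STAT genes 0 of 12. A match describes these letters and does not show binding.

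Some facts of the libraries bear on what follows. The median kept cell held 42314 UMIs in the SO-L1 library and 53959.5 UMIs in the other. Kept cells were split by MT- share at 2%, into the MT-low class (below 2%) and the MT-high class (2% or more). Each comparison with cells without an IFIT gene was made within 1 library and 1 class. Where 4 values follow each other without a class, their order is SO-L1 MT-low, SO-L1 MT-high, ASO-L1 MT-low and ASO-L1 MT-high. The libraries shared 6105 barcode sequences, which 16.2% of all kept cells carried in SO-L1 and 58.4% in ASO-L1. Of the IFIT cells, 8 of the 30 of SO-L1 and 21 of the 28 of ASO-L1 carried a shared one. The partner barcode in the other library was kept for 0 of the 8 and 2 of the 21, and none of the partners was an IFIT cell. In all, the partners of the 8 held 9 IFIT UMIs against 1686 in the 8 cells themselves, and the partners of the 21 held 5 against 279. Results are given with and without shared barcodes where they differed. Barcodes with fewer than 1000 genes held IFIT1, IFIT2 and IFIT3 at 1.07, 0.641 and 2.35 CPM (UMIs scaled to a common library total, here without MT- genes) in SO-L1, and at 1.38, 5.51 and 4.82 CPM in ASO-L1, from 2 to 11 UMIs of each gene. Kept cells as a whole held them at 3.31, 2.74 and 4.93 CPM in SO-L1 and at 1.24, 0.708 and 1.15 CPM in ASO-L1. In ASO-L1 the pooled level in kept cells was thus below that of these barcodes. The part of free RNA in single IFIT UMIs was not tested.

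IFIT cells made up a small share of each library, larger among MT-low than among MT-high cells. In SO-L1 they were 23 of 1857 MT-low cells, 1.24% (exact Clopper-Pearson 95% interval 0.787 to 1.85), and 7 of 4696 MT-high cells, 0.149% (0.0600 to 0.307). In ASO-L1 they were 15 of 2531 MT-low cells, 0.593% (0.332 to 0.976), and 13 of 6553 MT-high cells, 0.198% (0.106 to 0.339). The intervals of the MT-low and MT-high shares did not overlap in SO-L1 and overlapped slightly in ASO-L1. The MT-low shares of the libraries overlapped in their intervals. A cell with more UMIs has more chances to show a rare transcript, so each cell was also thinned to 8000 UMIs. That left out 649 and 520 shallower cells, 1 IFIT cell among them in each library. After thinning, 9 of 1554 MT-low cells (0.579%, 0.265 to 1.10) and 2 of 4350 MT-high cells (0.0460%) remained IFIT cells by the same rule in SO-L1. In ASO-L1 the thinned counts were 6 of 2235 (0.268%, 0.0986 to 0.583) and 2 of 6329 (0.0316%). Without shared barcodes the MT-high share of ASO-L1 was 0.0732%, from 2 of 2733 cells.

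**Figure D1:**
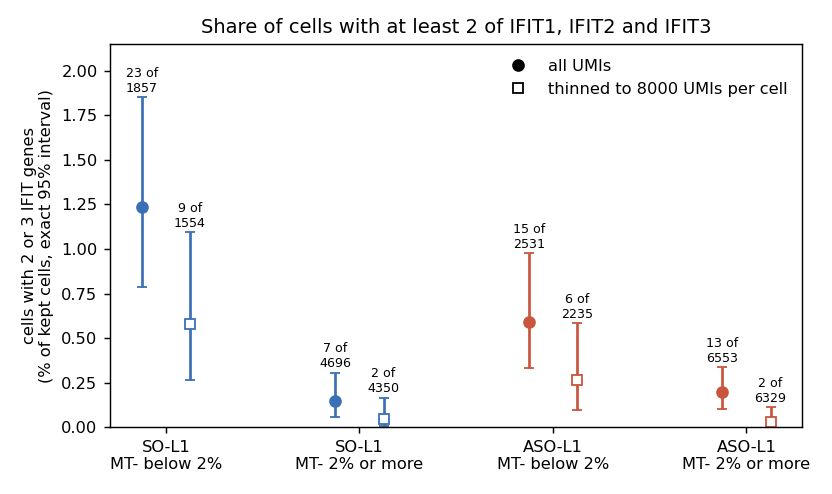
Share of kept cells with at least 2 of IFIT1, IFIT2 and IFIT3 (vertical axis, percent, linear from 0) in the 4 combinations of library and MT- class; filled circles use all UMIs, open squares cells thinned to 8000 UMIs, bars are exact 95% intervals, and the counts stand above them. The MT-low class is highest in both libraries (1.24% in SO-L1, 0.593% in ASO-L1), and every share is lower after thinning.

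Cells with exactly 1 of the 3 genes were more evenly spread over the MT- classes. They made up 5.01% and 5.00% of MT-low and MT-high cells in SO-L1 and 6.16% and 4.55% in ASO-L1. The 3 genes were found together mostly in the MT-low class. Of MT-low SO-L1 cells with IFIT1, 22 of 46 also had IFIT3, or 47.8%, against 3.81% of those without IFIT1. In MT-low ASO-L1 cells the shares were 15.9% (13 of 82) and 3.35%. Among MT-high cells they were 10.9% against 3.71% in SO-L1 and 9.09% against 2.74% in ASO-L1. The commonest pair among IFIT cells was IFIT1 with IFIT3 without IFIT2, in 39 cells, while 14 cells had all 3 genes, 13 of them MT-low.

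The amount of IFIT RNA differed among IFIT cells by more than 2 orders of magnitude. Exactly 2 IFIT UMIs, the least the rule allows, were present in 23 of the 58 cells, 35 had 3 or more, 20 had 10 or more, and 6 had 100 or more. Those 6 cells, 4 of SO-L1 and 2 of ASO-L1 and all MT-low, held 84.6% of the 3348 IFIT UMIs of the 58 cells. In the 4 of SO-L1 the counts of IFIT1, IFIT2 and IFIT3 were 373, 225 and 384 in the first, 146, 225 and 238 in the second, 108, 65 and 165 in the third, and 31, 125 and 63 in the fourth. In the 2 of ASO-L1 they were 197, 246 and 117, and 53, 44 and 28. No gene led in all 6 cells: IFIT3 was highest in 3, IFIT2 in 2 and IFIT1 in 1. Levels are raw UMIs from the 3′ end of each transcript, and reads from stretches that IFIT genes share could have been placed on the wrong one.

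Most IFIT RNA of the SO-L1 library lay in IFIT cells. They held 87.1% of the 2784 IFIT UMIs among kept cells of SO-L1 and 63.5% of the 1456 in ASO-L1, and the 3 highest cells alone held 69.3% and 51.0%. IFIT2 was the most concentrated, with 98.8% and 93.1% of its UMIs in IFIT cells, followed by IFIT1 with 90.3% and 64.7% and IFIT3 with 78.3% and 43.9%. A pooled level of these genes thus rests on few cells.

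The label of interferon response held for only some IFIT cells when checked against genes the rule did not use. Effector level here is the summed UMIs of the 63 antiviral effectors per 10000 non-mitochondrial UMIs of a cell. In MT-low SO-L1 cells it ran from 12.8 to 613 with a median of 59.8 in IFIT cells, against a median of 20.3 and a 99th percentile of 62.9 in cells with no IFIT gene. MT-low ASO-L1 cells gave 13.0 to 601 with a median of 53.5, against a median of 15.4 and a 99th percentile of 40.4. Medians were close in the MT-high class, 20.7 (11.01 to 94.1) against 16.3 in SO-L1 and 15.7 (10.4 to 39.7) against 14.8 in ASO-L1. Above the 99th percentile of cells without an IFIT gene lay 11 of 23, 1 of 7, 8 of 15 and 4 of 13 IFIT cells, in the order SO-L1 MT-low, SO-L1 MT-high, ASO-L1 MT-low and ASO-L1 MT-high. That is 24 of 58, and it divided by IFIT UMIs: 24 of the 35 cells with 3 or more IFIT UMIs and 0 of the 23 cells with 2. Of those 23, 15 lay above the median of cells without an IFIT gene of their set, so they were not set apart by this measure, and all 58 are called by the rule. The part of free RNA and of doublets in them was not tested. Some of the 24 were shallow. Among them were an MT-low SO-L1 cell of 1850 UMIs, 22 of effectors, and an MT-high ASO-L1 cell of 3141 UMIs, 12 of effectors.

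Effector level followed the number of IFIT genes in the MT-low class. The medians in SO-L1 were 20.3 with none, 20.6 with 1, 31.0 with 2 and 162 with 3 genes. In ASO-L1 they were 15.4, 19.4, 20.8 and 149. Cells with 1 gene thus lay close to cells with none in SO-L1. Across the IFIT cells of a library, with both MT- classes pooled, IFIT UMIs per 10000 were set against effector level. Spearman rho was 0.847 over 30 cells of SO-L1 and 0.748 over 28 of ASO-L1. It describes cells that share a library and differ in depth, and it includes the difference between the MT- classes. Both measures were divided by the same UMI total of a cell, and IFIT UMIs also chose the cells. Cells with 2 IFIT UMIs differ in IFIT UMIs per 10000 by depth only. By IFIT UMIs, effector level in MT-low cells of both libraries had a median of 20.8 (12.8 to 38.6) in the 13 cells with 2, 64.0 (19.5 to 127) in the 10 cells with 3 to 9, 105 (27.9 to 193) in the 9 with 10 to 99 and 314 (111 to 613) in the 6 with 100 or more. MT-high cells did not show the same steps, with medians of 15.6 in 10 cells with 2 IFIT UMIs, 12.7 in 5 with 3 to 9 and 31.7 in 5 with 10 to 99. The reverse also holds: 21 of 1741 MT-low SO-L1 cells with no IFIT gene (1.21%) and 6 of 2360 in ASO-L1 (0.254%) lay above the median effector level of the IFIT cells.

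**Figure D2:**
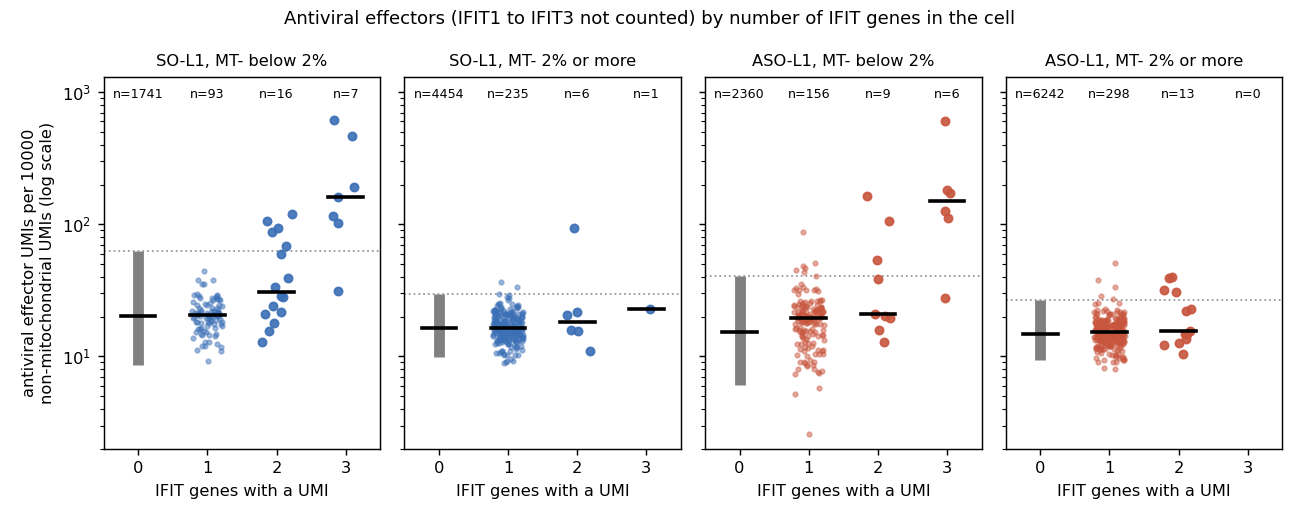
Antiviral effector UMIs per 10000 non-mitochondrial UMIs (vertical axis, log scale) against the number of IFIT genes with a UMI, 1 panel for each library and MT- class; points are cells with 1, 2 or 3 IFIT genes, thick black lines are medians, the grey bar spans the 5th to 99th percentile of cells with none, and the dotted line continues its top. Cells with 3 genes in the MT-low panels have medians of 162 and 149, above the dotted lines at 62.9 and 40.4, and most cells with 1 gene lie within the grey range.

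**Figure D3:**
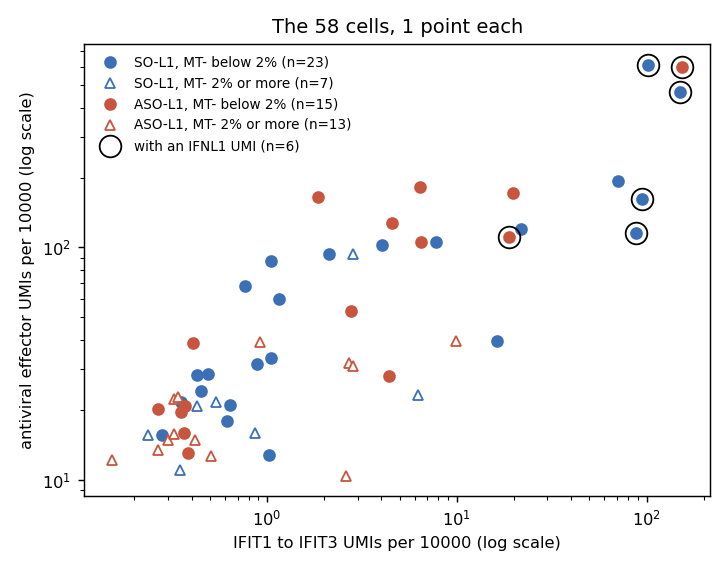
Antiviral effector UMIs per 10000 against IFIT1 to IFIT3 UMIs per 10000, both on log scales, with 1 point for each of the 58 IFIT cells; circles are MT-low and triangles MT-high cells, and black rings mark the 6 cells with an IFNL1 UMI. The ringed cells have effector levels from 111 to 613 and are the 6 cells with 100 or more IFIT UMIs.

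ISG15 (ENSG00000187608, chr1:1001138-1014540) encodes a ubiquitin-like protein that is joined to other proteins during an interferon response. Its raw UMIs ran from 2 to 1819 (median 59) over the 23 SO-L1 MT-low IFIT cells and from 1 to 1462 (median 69) over the 15 of ASO-L1. Among MT-high cells they ran from 0 to 342 (median 3) over 7 SO-L1 cells and from 0 to 126 (median 8) over 13 ASO-L1 cells. At least 1 UMI was present in 56 of the 58. The groups overlap at the low end, since 72.0% and 80.4% of MT-low cells with no IFIT gene also had ISG15, at a median of 2 and 3 UMIs. Summed over cells, ISG15 was 34.0-fold (95% counting interval 32.9 to 35.2) and 30.6-fold (29.7 to 31.6) above cells without an IFIT gene in the MT-low class of SO-L1 and ASO-L1. For MT-high cells it was 24.7-fold in SO-L1, where 90.2% of the UMIs lay in 1 cell and the fold without it was 3.40, and 6.39-fold (5.70 to 7.14) in ASO-L1. ISG15 and IFIT amounts did not keep 1 ratio: the cell with 982 IFIT UMIs had 1819 of ISG15, another with 609 had 294, and 1 ASO-L1 cell with only 19 had 1200.

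A gene is called below when its summed CPM in IFIT cells was at least 1.5 times higher or lower than in cells with no IFIT gene, with a counting interval that excluded 1, and it is measured from 50 UMIs over both groups. Such calls describe these cells and not a treatment. In MT-low SO-L1 cells 22 of 47 measured effectors were called higher and 0 lower, where 7.93% of all genes were called higher and 2.36% lower. MT-high SO-L1 cells gave 9 higher and 0 lower of 49 (all genes 4.22% and 1.64%). MT-low ASO-L1 cells gave 27 higher and 1 lower (IFITM2, 0.528 times) of 50, against 8.33% and 4.31% of all genes. MT-high ASO-L1 cells gave 15 higher and 1 lower (NT5C3A, 0.634 times) of 49 (7.73% and 2.05%). In the same order of sets, 20, 7, 20 and 8 effectors were called higher when the cell with most of a gene's UMIs was left out for each gene. They were 18, 4, 14 and 2 in thinned cells and 17, 3, 21 and 3 without shared barcodes, so most of the MT-high calls were lost there. Thinning picked the IFIT cells anew and left 9, 2, 6 and 2 of them, and leaving out shared barcodes also left fewer. The loss of calls thus cannot be told apart from the smaller number of cells. Still in that order, the median log2 fold of the list was 0.85, 0.96, 0.95 and 0.91, against 0.09, 0.30, 0.16 and 0.33 over all measured genes. With genes at 0 UMIs in IFIT cells ranked lowest it was 0.85, 0.38, 0.92 and 0.20, against 0.03, -0.16, -0.06 and -0.05.

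Several effectors were close to absent outside IFIT cells. OASL (ENSG00000135114, chr12:121019111-121039242), which enhances RIG-I signalling, had 245 UMIs in 5 MT-low SO-L1 IFIT cells and 9 UMIs in the 1741 cells with no IFIT gene. The 5 cells held 105, 75, 58, 4 and 3. In MT-low ASO-L1 cells it had 87 UMIs in 5 IFIT cells against 9 in 2360 others, and 59 of the 87 lay in the cell with most IFIT UMIs. IFI44, a gene of incompletely known function induced by type I interferon, had 44 UMIs in 6 IFIT cells against 1 in all MT-low SO-L1 cells without an IFIT gene, and 51 in 4 against 0 in ASO-L1. OAS1, which makes the second messenger that switches on RNase L, had 57 UMIs in 7 SO-L1 MT-low cells against 8 outside, and 9 in ASO-L1, 8 of them in 1 cell. None of the 23 cells with 2 IFIT UMIs had an OASL, OAS1, IFI44 or DHX58 UMI. IFIT5, the neighbour of IFIT1 on chromosome 10, had only 7 UMIs in each MT-low set of IFIT cells, in 2 SO-L1 and 5 ASO-L1 cells. RSAD2, which encodes the antiviral enzyme viperin, had 2 UMIs in 1 of the 58 cells, and IFI44L had none.

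Other effectors were also found in cells without an IFIT gene, and most of those named here were higher in MT-low IFIT cells. HERC5, the ligase that attaches ISG15, was 9.21-fold (8.49 to 9.97) and 12.9-fold (11.6 to 14.2) higher in the MT-low class of SO-L1 and ASO-L1, from 700 and 439 UMIs. Its UMIs ran from 1 to 255 (median 7) over the 23 SO-L1 cells and from 0 to 202 (median 6) over the 15 ASO-L1 cells. ZC3HAV1, whose product binds CpG-rich viral RNA, was 12.2-fold (11.01 to 13.5) and 10.7-fold (9.60 to 11.8) higher. DDX60, a helicase linked to RNA sensing, was 29.5-fold and 63.9-fold higher, with 51 of its 86 ASO-L1 UMIs in 1 cell and a fold of 35.9 without it. IFI6, a mitochondrial and endoplasmic reticulum protein, was 27.2-fold and 8.07-fold higher, and 15.8-fold and 2.68-fold without the top cell of each library. IFI27 was 10.6-fold and 9.72-fold higher, and 8.12-fold and 4.56-fold without the top cells. MX1, a GTPase that blocks viral ribonucleoproteins, was 3.497-fold and 2.46-fold higher in the MT-low class and 11.1-fold and 5.69-fold higher in the MT-high class, where cells without an IFIT gene had less of it (4.27 and 6.06 CPM against 41.8 and 56.4 CPM in the MT-low class). In MT-high ASO-L1 cells 21 of the 30 MX1 UMIs lay in 1 cell, and the fold was 2.37 without it. IFITM3, which blocks fusion of viruses at the endosome, was 2.26-fold and 1.57-fold higher in the MT-low class, and 1.08-fold and 0.952-fold in the MT-high class. BST2, which tethers budding virus, was at 1.05 and 0.824 times the level of cells without an IFIT gene in the MT-low class. The IFI6 fold of 24.9 in MT-high ASO-L1 cells rested on 1 cell with 59 of 61 UMIs and was 1.12 without it.

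**Figure D4:**
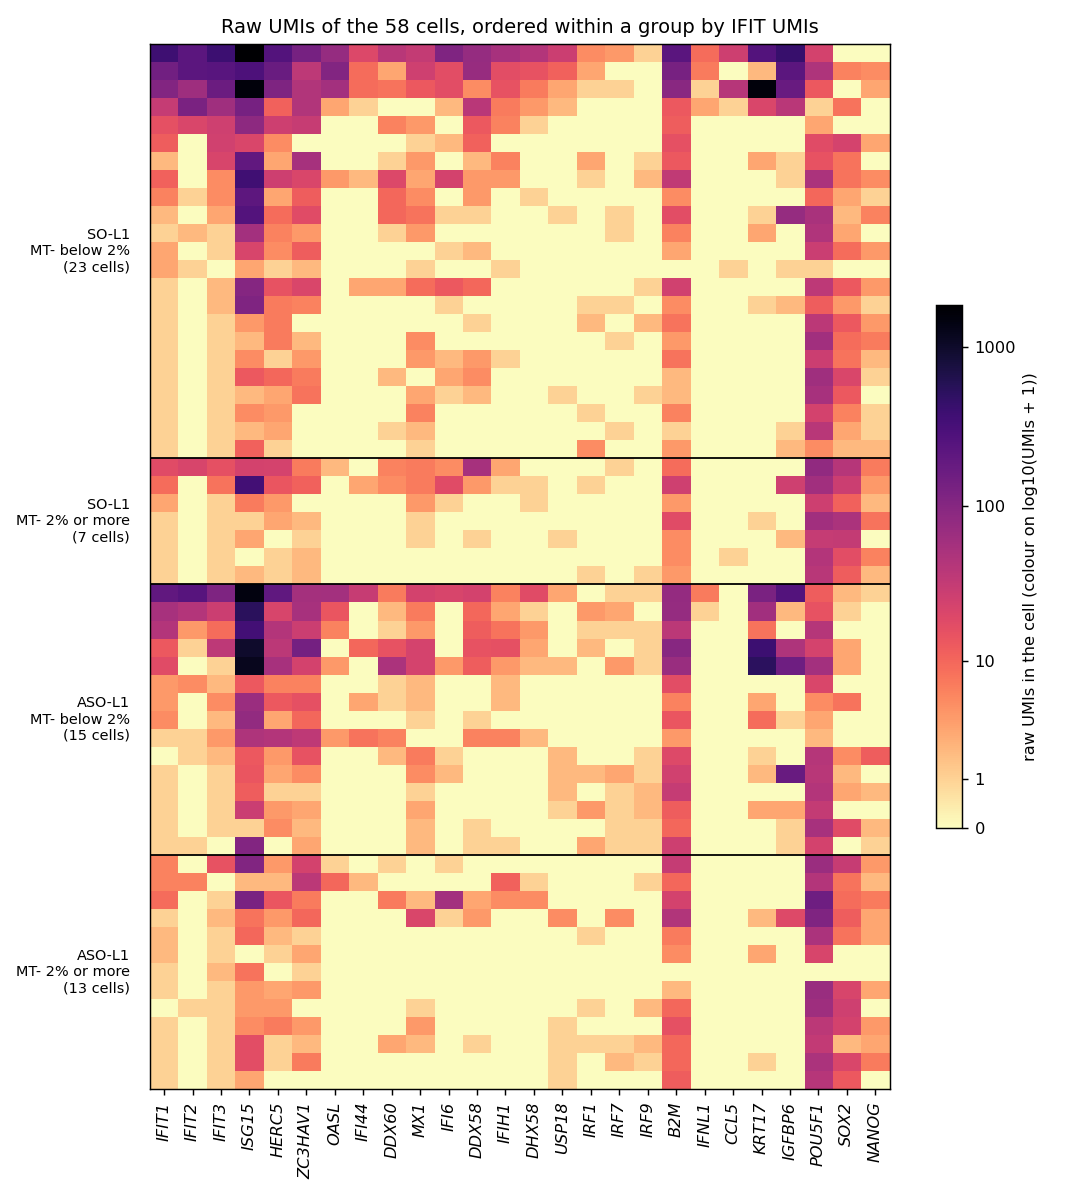
Raw UMIs of 26 genes (columns) in each of the 58 IFIT cells (rows), in 4 blocks by library and MT- class and ordered within a block by IFIT UMIs; the colour follows log10(UMIs + 1) and its bar is labelled in UMIs. The top rows of the 2 MT-low blocks are dark across the antiviral genes, KRT17 and IGFBP6. The lower rows show mainly POU5F1, with SOX2, B2M, ISG15 and HERC5 at lower counts.

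The cytosolic sensors of viral RNA were higher in IFIT cells of the MT-low class, and TBK1 and IRF3, which act downstream of them, were not called. DDX58, which encodes RIG-I, had 250 UMIs in 16 of 23 SO-L1 cells and was 18.5-fold (16.0 to 21.4) higher, and had 82 in 9 of 15 ASO-L1 cells, 13.2-fold (10.4 to 16.5) higher. IFIH1, which encodes MDA5, had 111 UMIs in 9 SO-L1 cells against 17 in cells without an IFIT gene, a fold of 393 (234 to 698), and 48 in 9 ASO-L1 cells against 14, a fold of 471 (256 to 926). DHX58, the regulator LGP2, was 43.6-fold and 17.6-fold higher, with 43 of 71 and 18 of 30 UMIs in 1 cell and folds of 20.9 and 9.16 without it. IKBKE was also called in SO-L1, at 2.66 times, and MAVS in ASO-L1, at 1.76 times. The kinase TBK1 was at 0.907 and 1.17 times, and the factor IRF3 at 0.859 and 0.844 times, the level in cells without an IFIT gene. The shares of all genes called higher were 7.93% and 8.33% in the MT-low class and 4.22% and 7.73% in the MT-high class. The shares called lower were 2.36% and 4.31% in the MT-low class and 1.64% and 2.05% in the MT-high class. Of the sensing genes listed, 4 higher and 0 lower of 16 measured were called in SO-L1 and 4 and 1 of 17 in ASO-L1. The lower gene was TARBP2 at 0.563 times. MT-high cells gave 1 and 0 of 17, and 3 (IFIH1, DHX58, TRAF6) and 0 of 19, with 0 higher in both without the top cell of each gene. There, 91.7% of the DDX58 UMIs of SO-L1 lay in 1 cell, 55 UMIs, and the fold of 13.9 was 1.62 without it. The IFIH1 UMIs of ASO-L1 lay in 2 MT-high cells, 11 and 5.

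Interferon ligand RNA was almost absent. IFNB1 had 0 UMIs in either library, over 273349662 and 499106701 UMIs of kept cells. By counting error that allows an expected count of up to 3 captured UMIs in each, and it does not limit RNA that was not captured. Interferon lambda 1, IFNL1 (ENSG00000182393, chr19:39296325-39298673), encodes a type III interferon and was the ligand found in IFIT cells. Its 20 UMIs in SO-L1 IFIT cells were 9, 7, 1 and 3 in the cells with 982, 609, 338 and 219 IFIT UMIs, the 4 highest of that library, and 1 further UMI lay in a cell with no IFIT gene. In ASO-L1 it had 7 and 1 UMIs in the cells with 560 and 125 IFIT UMIs, the 2 highest, while 2 UMIs in a cell with 1 IFIT UMI and 1 each in 2 cells with none made up the rest. IFNL1 was thus present in the 6 IFIT cells with 100 or more IFIT UMIs and in 0 of the other 52. Its promoter, printed above, holds 2 overlapping matches to the same motif, 214 and 208 bases before the start. CXCL10, a chemokine often used to mark the response, had 0 UMIs in the 58 cells.

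Receptor and signalling genes differed between the libraries in what was called. In the MT-low class of SO-L1 and ASO-L1, IRF1, a factor induced by interferon, was at 3.45-fold (2.14 to 5.31) and 1.75-fold (0.998 to 2.85), IRF7 1.73-fold (0.821 to 3.22) and 1.25-fold (0.713 to 2.04), and IRF9 1.37-fold (0.587 to 2.73) and 1.27-fold (0.654 to 2.22). Of all genes, 7.93% and 8.33% were called higher in the MT-low class and 4.22% and 7.73% in the MT-high class. Called lower were 2.36% and 4.31% of all genes in the MT-low class and 1.64% and 2.05% in the MT-high class. The list of receptors and JAK-STAT genes gave 6 higher of 16 in MT-low SO-L1 cells, 5 without the top cell of each gene, and 0 in ASO-L1. Among the 6 were IL10RB at 2.13 times, JAK2 at 1.99, JAK1 at 1.52 and IFNLR1, the receptor chain for IFNL1, at 1.54. Among MT-high cells it gave 1 higher in each library, and 1 lower in ASO-L1, IFNAR2 at 0.480 times. USP18, which shuts down the type I receptor, was 24.5-fold higher in MT-low SO-L1 cells, with 28 of its 46 UMIs in 1 cell and a fold of 11.8 without it. In ASO-L1 it was 1.12-fold (0.578 to 1.96), and there even cells without an IFIT gene held it at 14.0 CPM against 2.09 CPM in SO-L1. NFKBIA, the inhibitor of NF-kB, was 2.16-fold and 1.16-fold. Feedback inhibitors in all gave 4 higher of 9 in MT-low SO-L1 cells (USP18, NFKBIA, SOCS1 and PIAS1) and 0 of 11 in ASO-L1, and 1 of 11 in each MT-high set. Whether the libraries differ in these genes was not tested.

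**Figure D5:**
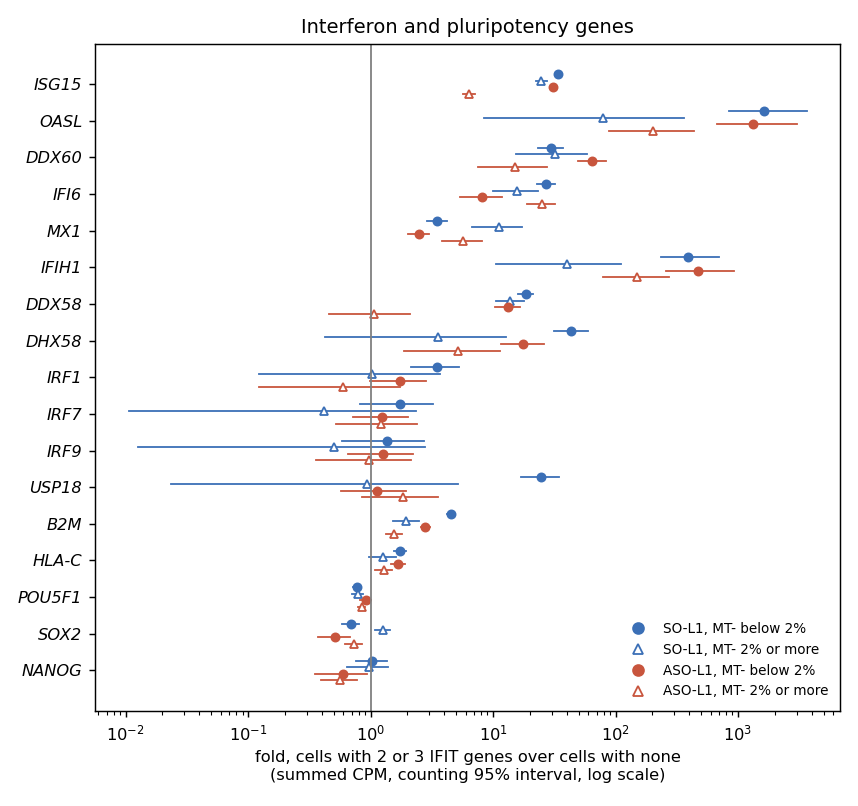
Fold of summed CPM in IFIT cells over cells with no IFIT gene (horizontal axis, log scale) for 17 genes, with 95% counting intervals; circles are MT-low, triangles MT-high, blue SO-L1 and red ASO-L1, and a gene with 0 UMIs in the IFIT cells has no mark. ISG15, OASL, DDX60, IFIH1 and DDX58 lie far to the right in the MT-low class of both libraries, USP18 lies to the right of 1 in MT-low SO-L1 cells and near 1 in those of ASO-L1, and POU5F1 lies just below 1.

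Antigen presentation genes were called higher in all 4 sets, in differing numbers. B2M, the light chain of class I molecules, was called higher in all 4 sets: 4.54-fold (4.18 to 4.92) and 2.80-fold (2.56 to 3.05) in the MT-low class, and 1.96-fold (1.53 to 2.47) and 1.56-fold (1.34 to 1.80) in the MT-high class. In the 2 thinned IFIT cells of MT-high SO-L1 the log2 fold was -0.43, from 1 B2M UMI, too few to give a direction. The UMIs of B2M ran from 0 to 227 (median 8) in the 23 MT-low SO-L1 cells and from 4 to 97 (median 25) in the 15 of ASO-L1. The 4 SO-L1 cells with 100 or more IFIT UMIs held 465 of the 636 B2M UMIs of their set. The 2 such cells of ASO-L1 held 151 of 520. HLA-C was 1.74-fold and 1.68-fold higher in the MT-low class, although reads of HLA genes are hard to assign to 1 gene. PSMB9, a subunit of the immunoproteasome, was 6.36-fold higher in SO-L1 from 13 UMIs. NLRC5, the activator of class I genes, was 3.05-fold higher in ASO-L1 and 1.28-fold in SO-L1. Called higher were 8 of 18 and 5 of 18 genes in the MT-low class and 5 and 3 of 18 in the MT-high class, with 0 lower in each. Beside these stand 7.93% and 8.33% of all genes called higher in the MT-low class and 4.22% and 7.73% in the MT-high class. Called lower were 2.36% and 4.31% of all genes in the MT-low class and 1.64% and 2.05% in the MT-high class.

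Chemokine and NF-kB target genes were called in small numbers, 4 higher of 13 and 5 of 15 in the MT-low class, 1 and 4 of them without the top cell of each gene, and 1 of 12 and 1 of 16 in the MT-high class. Over all genes 7.93% and 8.33% were called higher in the MT-low class and 4.22% and 7.73% in the MT-high class, and the MT-high counts are near those shares. NFKB1, an NF-kB subunit, was 2.01-fold and 2.47-fold higher. CCL5, which attracts T cells, had 70 UMIs in 4 MT-low SO-L1 cells, 41, 27, 1 and 1, and 1 in an MT-high cell, while no ASO-L1 IFIT cell had any. IL15 was 2.56-fold and 1.91-fold higher in the MT-low class. Genes that limit double-stranded RNA and repeats, the class closest to the study's subject, gave few calls. They were 0 higher and 1 lower, 3 and 0, 1 and 0, and 0 and 1 of 23 in the 4 sets. In the same order 2.36%, 1.64%, 4.31% and 2.05% of all genes were called lower. The lower gene was UHRF1, which maintains DNA methylation, at 0.265 times in MT-low SO-L1 and 0.557 times in MT-high ASO-L1 cells. SETDB1 and MPHOSPH8, of the H3K9 methylation machinery, were 1.67-fold higher in the 7 MT-high SO-L1 cells. TRIM28, a repressor of repeats, was at 0.793, 0.780, 0.844 and 0.964 times, and SAMHD1, which destroys nucleotides needed by retroelements, at 1.36, 1.84, 1.51 and 1.06 times, with 26 of 57 and 19 of 43 UMIs in 1 cell in the middle sets and folds of 1.40 and 1.09 without it.

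Some genes outside the interferon lists were also higher in MT-low IFIT cells. Among genes with 100 or more UMIs over both groups of cells in each library, ranked by the interval bound nearest to 1 in the weaker library, KRT17, a keratin, came first, followed by CSAG1, a cancer-testis antigen, with ISG15, DDX60 and IGFBP6, which binds insulin-like growth factor 2, next. KRT17 (chr17:41619441-41624842) had 1858 UMIs in 8 of 23 SO-L1 cells, 1570 of them in 1 cell, and 1129 in 10 of 15 ASO-L1 cells, with 528 and 390 in 2 of them. The fold was 159 in SO-L1, 41.0 without the top cell, and 52.0 in ASO-L1. IGFBP6 (chr12:53097436-53102345) had 948 UMIs in 11 SO-L1 cells and 642 in 9 ASO-L1 cells, 77.7-fold and 13.1-fold higher. Of the 6 cells with 100 or more IFIT UMIs, 5 had 10 or more of KRT17 and 5 had 10 or more of IGFBP6, against 2 and 6 of the other 52. KRT17 has pseudogene copies with which reads can be confused. CSAG1 was 84.2-fold and 45.8-fold higher on 98 and 52 UMIs in 5 and 3 cells, and 19.6-fold and 20.2-fold without the top cell. In all, 486 genes qualified as higher and 350 as lower in both MT-low sets by this ranking rule, which sets no 1.5-fold threshold. In the MT-high sets, where the rule left 225 higher and 156 lower, IFI6, DDX60, ISG15, CSAG1 and MX1 came first. CSAG1 rested there on 5 UMIs in 2 SO-L1 cells and 13 UMIs in 1 ASO-L1 cell. Without the top cell its lower interval bound was 0.0962 in SO-L1 and 0 in ASO-L1. DDX60 rested on 11 UMIs in each library, in 2 SO-L1 and 3 ASO-L1 cells.

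Stress genes were called in numbers that differed between the sets, and are given beside the share of all genes called higher, 7.93% and 8.33% in the MT-low class and 4.22% and 7.73% in the MT-high class of SO-L1 and ASO-L1. Called lower among all genes were 2.36% and 4.31% in the MT-low class and 1.64% and 2.05% in the MT-high class. NUPR1, a stress-induced chromatin protein, was 9.82-fold and 9.13-fold higher in the MT-low class, with 121 of 160 and 105 of 146 UMIs in 1 cell each and folds of 2.92 and 3.36 without it. ATF3 was 1.44-fold and 1.82-fold, and DDIT3 0.836-fold and 0.828-fold. Genes of the integrated stress response gave 4 higher and 3 lower of 21 in MT-low SO-L1 cells, 4 and 0 in ASO-L1, and 7 and 0, and 11 and 0, in the MT-high sets, where 2 and 5 stayed higher without the top cell of each gene. All cells had been given trans-ISRIB for the first 24 h. p53 targets gave 5, 4, 2 and 13 higher of 24, with MDM2 2.10-fold, 0.772-fold, 1.17-fold and 3.31-fold in the order of the sets above. KLF4 was 4.62-fold and 3.27-fold higher in the MT-low class. The MT-high ASO-L1 set holds the deepest IFIT cell, with 201287 UMIs, 3 IFIT UMIs and 10 detected genes of the 8C state (that of the 8-cell embryo). Immediate early genes gave 7 higher of 17, 1 of 17, 1 of 20 and 9 of 20, with 2 lower in MT-low ASO-L1 cells.

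IFIT cells carried pluripotency genes at levels mostly below those of other cells. POU5F1, the core pluripotency factor, had a UMI in 57 of 58 and stood at 0.774, 0.784, 0.910 and 0.843 times the level of cells without an IFIT gene. SOX2 was at 0.691, 1.26, 0.509 and 0.727 times and NANOG at 1.02, 0.963, 0.591 and 0.561 times. Of these, SOX2 in MT-low ASO-L1 cells and NANOG in both ASO-L1 sets were called lower. In the 6 cells with 100 or more IFIT UMIs, all MT-low, POU5F1 ran from 1 to 47 UMIs (median 14) and SOX2 from 0 to 8 (median 1.5). In the 13 MT-low cells with 2 IFIT UMIs POU5F1 ran from 5 to 62 (median 40) and SOX2 from 0 to 21 (median 6), so both overlapped. Of 17 general pluripotency genes, 6 and 7 were called lower and 0 higher in the MT-low sets, with 1 and 3 lower in the MT-high sets. Among all genes 2.36% and 4.31% were called lower in the MT-low sets of SO-L1 and ASO-L1, and 1.64% and 2.05% in the MT-high sets. TERF1, a telomere protein high in stem cells, was at 0.570 and 0.405 times in the MT-low class, UTF1 at 0.601 and 0.243, DPPA5 at 0.484 and 0.498 and TFAP2C at 0.409 and 0.283. FOXD3-AS1, an antisense transcript beside FOXD3, was at 0.222 and 0.162 times on 4 and 3 UMIs. Naive pluripotency genes went both ways, with 2 higher and 6 lower of 17 in MT-low SO-L1 cells and 4 and 2 in ASO-L1. The MT-high sets gave 2 and 2 of 16, and 6 and 0 of 17. Called higher among all genes were 7.93% and 8.33% in the MT-low sets and 4.22% and 7.73% in the MT-high sets.

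Trophectoderm and amnion genes gave 4 higher of 9 and 5 of 12 in the MT-low class, 1 and 2 of them without the top cell of each gene, and 0 lower, where 7.93% and 8.33% of all genes were called higher. In the MT-high sets 0 of 11 and 3 of 12 were higher, against 4.22% and 7.73% of all genes. For this and the following lists, 2.36% and 4.31% of all genes were called lower in the MT-low sets, and 1.64% and 2.05% in the MT-high sets. KRT18 was 2.05-fold and 2.28-fold higher in the MT-low class, but 56.8% and 52.96% of its UMIs lay in 1 cell, without which it was 1.08-fold and 1.39-fold. CLDN4, a tight junction protein, was 2.65-fold and 3.29-fold higher and spread over 10 and 11 cells. Genes of the 8C state, which the study aimed at, had no single direction: 1 higher and 3 lower of 11 in MT-low SO-L1 cells, 3 and 4 of 15 in ASO-L1. The MT-high sets gave 1 and 0 of 7, and 7 and 0 of 13, the 7 falling to 2 without the top cell of each gene. KHDC1L was at 0.416 and 0.664 times in the MT-low class, and at 8.42 times in MT-high ASO-L1 cells, where 169 of 223 UMIs lay in 1 cell. The MT-low ASO-L1 direction turned in 4 alternatives, with a log2 fold of 0.36 in thinned cells. S phase genes gave 2, 2, 3 and 3 lower of 20 and 0 higher, with MCM7, part of the replicative helicase, at 0.726, 0.881, 0.560 and 0.615 times. G2M genes gave 1, 0, 1 and 3 higher and 0, 1, 0 and 1 lower of 20, and nuclear genes of the respiratory chain 0 higher, with 1 lower of 20 in MT-low ASO-L1 cells.

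Several defining markers of other cell types were at 0 in IFIT cells. Of the leukocyte markers, PTPRC, LYZ and CD3E had 0 UMIs in all 58 cells, and the summed leukocyte markers ran from 0 to 5 UMIs per cell with a median of 1, against medians of 0 or 1 in cells without an IFIT gene. The endothelial marker CDH5 was at 0 in all 58 cells, and so were the fibroblast markers COL3A1, LUM and DCN. Called higher among leukocyte markers were TYROBP in MT-low SO-L1 cells, 5 UMIs in 3 cells, and CSF1R in MT-low ASO-L1 cells, 10 UMIs in 5 cells. Among endothelial markers TEK and VWF were called higher in MT-low ASO-L1 cells, with 15 UMIs in 5 cells and 6 in 4. COL1A1 had UMIs in 29 of them and was 1.85-fold and 2.59-fold higher in the MT-low class, with 40 of 65 ASO-L1 UMIs in 1 cell and 1.30-fold without it. Summed fibroblast markers ran from 0 to 14 UMIs per MT-low SO-L1 IFIT cell and from 0 to 67 in ASO-L1, with medians of 5 and 3 against 2 and 2. In the 4 sets 7.93%, 4.22%, 8.33% and 7.73% of all genes were called higher, and 2.36%, 1.64%, 4.31% and 2.05% lower. Mesendoderm genes gave 2 higher and 1 lower of 5, 1 and 0 of 4, 0 and 1 of 7, and 1 and 1 of 10. Neural genes gave 0 and 2 of 5, 2 and 1 of 8, and 0 and 0 of 9 in both ASO-L1 sets. The part of these markers in the antiviral result was not tested. Depth moved with the rule, with median UMIs of 37993 against 33036, 61466 against 44800, 52723 against 44376.5 and 64136 against 56000.5 in IFIT cells and cells without an IFIT gene, in the order of the sets above.

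The level of the antiviral effectors in IFIT cells was compared between the libraries in the same way. In the MT-low class 3 of 25 measured effectors were called higher and 8 lower in ASO-L1 than in SO-L1 IFIT cells, where 16.3% of all genes were called higher and 22.8% lower. The median log2 fold was -0.19, against -0.05 over all genes. Among cells without an IFIT gene the counts were 8 higher and 15 lower of 49 (all genes 23.3% and 25.1%), with a median of -0.15. ISG15 was 1.09-fold (1.05 to 1.14) and B2M 0.961-fold (0.854 to 1.08) in ASO-L1 over SO-L1 IFIT cells, DDX60 0.962-fold (0.715 to 1.29) and MX1 0.951-fold (0.729 to 1.24). OASL was at 0.417 times, DDX58 at 0.385 and IFI6 at 0.173 times. The comparison depends on which cells enter. Without shared barcodes, which left 19 of the 23 SO-L1 cells, without the 2 with most IFIT UMIs, and 5 of the 15 ASO-L1 cells, the median turned to 1.18, with 10 higher and 2 lower of 17. For MT-high IFIT cells 3 were higher and 3 lower of 13 (all genes 13.2% and 15%), with a median of -0.09, and without an IFIT gene 7 and 10 of 52 (12.8% and 16.6%).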

How the data were processed

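Single-cell 3′ RNA sequencing was read from 2 libraries, 1 per group. What was deposited are unnormalized UMI counts of each gene in each barcode. The authors made them with Cell Ranger 7.1.0 and the hg38 build, as the submitters' processing notes and headers state. Annotation release and intron counting are not stated in the material used. Counts were read with Python 3.11.15, numpy 2.4.6, scipy 1.17.1 and pandas 2.3.3. UMIs were summed over the cells of a set and divided by the total without MT- genes. Fold intervals are exact conditional binomial (Clopper-Pearson) 95% intervals, which cover counting error only and leave out the spread between cells; a sum of 0 was set to a floor of 3 UMIs over the set. The calculation was tested on simulated counts. No doublet caller was run, and leaving out the 5% of cells with most UMIs was an alternative. Members and gene lists were chosen with earlier results of these data known, and the classes by IFIT UMIs after the values were seen. The text names, for each MT- class, the 10 highest and 10 lowest genes by the interval bound closest to 1 in the weaker library, both libraries on 1 side and 100 or more UMIs in each. It also names 2 members of each list by ratio and 2 by UMIs, and a set list of interferon, stress and pluripotency genes. The other members named were chosen after their values were seen, among them those behind counts of 5 or fewer. A gene that this names is not reported here. Of 447 list entries, 7 were matched by an older symbol and 1 had no match. Promoters come from RefSeq, and IFIT2 has no entry in that table. Depth was 273349662 UMIs over the kept cells of SO-L1 and 499106701 UMIs over those of ASO-L1. With 1 library per group, no p-value is given.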

Additional observations from a re-analysis of the deposited data

Results flagged for a closer look

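Of the genes named, 2 were called in opposite directions in the libraries, IFIT cells over cells with no IFIT gene in the MT-low class, each at 1.5-fold or more with a counting interval that excluded 1. The difference between the libraries was not tested. CCNA1, a cyclin, was at 0.507 times in SO-L1 and 2.24 times in ASO-L1, with 78.7% and 58.6% of its UMIs in 1 cell and folds of 0.135 and 1.20 without it. JUN, an immediate early factor, was at 1.59 times in SO-L1 and 0.443 times in ASO-L1.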

How the results depend on the processing

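No paired analysis was possible because each group has 1 library. Of the values compared, 2736 single-gene values and 123 shares, counts and medians stayed the same across alternatives, while 667 and 29 moved and 39 single-gene values changed direction; the cause was not tested. The share of IFIT cells, in the order SO-L1 MT-low, SO-L1 MT-high, ASO-L1 MT-low and ASO-L1 MT-high, was 0.579%, 0.0460%, 0.268% and 0.0316% in thinned cells and 0.377%, 0.0213%, 0.237% and 0% with all 3 IFIT genes required; without shared barcodes the last was 0.0732%. Genes at least 1.5-fold apart numbered 1807, 1184, 2484 and 2154, and 1098, 213, 825 and 478 in thinned cells. Without the top cell of each gene the MT-high counts were 711 and 1057, and in MT-high ASO-L1 cells the count was 813 without shared barcodes and 1393 without the 5% of cells with most UMIs. Effectors called higher fell to 4 (SO-L1 MT-high), 14 (ASO-L1 MT-low) and 2 (ASO-L1 MT-high) in thinned cells and to 3 in both MT-high sets without shared barcodes, each with fewer IFIT cells. In MT-high ASO-L1 cells they were 9 without the 5% of deepest cells and 8 without top cells. The effector median of ASO-L1 over SO-L1 IFIT cells was, for MT-low cells, -0.66 with all 3 genes, 1.18 without shared barcodes and 0.20 without the deepest 5%, and for MT-high cells -3.21 without shared barcodes (1 gene) and -1.31 with a minimum of 200 UMIs. The log2 folds that changed sign follow. Some rest on very few UMIs in IFIT cells, too few to give a direction. In thinned cells these were B2M and CHST8 with 1, TFAP2C with 2, and MCM7 and POLR3G with 3. Without shared barcodes MCM7 had 4 and POLR3G 2. IFI6 had 1 without the deepest 5%, NUPR1 had 1 in each of its alternatives, and IL15 had 3. In thinned cells they were B2M -0.43 and CHST8 0.23 (SO-L1 MT-high), LRFN5 0.47 and S100A16 -0.67 (SO-L1 MT-low), KHDC1L 0.36 and TFAP2C 0.21 (ASO-L1 MT-low), and MCM7 0.47 and POLR3G 0.78 (ASO-L1 MT-high). In MT-high ASO-L1 cells without the deepest 5% they were CCNA1 -1.41, CDKN1A -0.33, DDIT3 -0.078, IFI6 -0.64, KHDC1L -1.96, S100A14 -0.81 and S100A16 -0.12. In the same set DDIT3, NUPR1, S100A14 and S100A16 were -0.22, -1.38, -1.34 and -0.38 without MT- shares of 1% to 3%, -0.18, -1.32, -1.44 and -0.43 without top cells, and -0.27, -1.44, -1.54 and -0.54 without the deepest IFIT cell, an alternative added after seeing the data. With all 3 IFIT genes they were DPPA5 0.44 (SO-L1 MT-high), LRFN5 0.041 (SO-L1 MT-low), and IL15 -0.32, KHDC1L 0.0052 and KRT18 -0.0078 (ASO-L1 MT-low). Without shared barcodes they were SAMHD1 -0.24 (SO-L1 MT-high), KHDC1L 0.35, KRT18 -0.12 and SRPK1 0.50 (ASO-L1 MT-low), and MCM7 0.90 and POLR3G 0.29 (ASO-L1 MT-high). With each cell weighted equally KHDC1L was 0.0044 (ASO-L1 MT-low). The MT-high sets rest on 7 and 13 IFIT cells, and the number of cells limits their sums.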
